A study of Mus musculus with 12 samples.

Results

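Large sets of acetylated chromatin bins in hepatocyte-enriched liver cells of young mice, which no single set in old mice matched closely, are described here. They came from H3K27ac Hi-ChIP of the liver of male C57BL/6 mice without any labelled genetic change, compared at 5 months (young) and 25 months (old). Each age had 2 biological replicates in 3 batches of technical repeats, 12 libraries in all, made with antibody Abcam ab4729. The deposited result is 1 network per age, with no replicate or batch named in it, so no spread between animals could be computed and no test or p-value is given. The young mice were bought from a commercial breeder and the old mice from an aging-research stock, and both were housed for a while before use, so age and source cannot be told apart. Cells came from the low-speed pellet of collagenase-digested liver, which is enriched in hepatocytes rather than pure.

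In each network the nodes are bins of 5 kb, and the authors grouped the nodes into sets they call cliques, each bin belonging to 1 clique. The cliques described here were chosen by 3 readouts of these same networks. They lie on the 19 autosomes, hold 10 or more nodes in the young network, share a Jaccard index (shared bins divided by bins in either clique) below 0.5 with every single old clique, and have at most 1 old clique with 2 or more of their bins. That old clique, where it exists, is called the partner. The rule selected 397 of the 1558 large autosomal young cliques (25.5%), out of 5401 young cliques in all, and these are called low-overlap cliques below. They hold 7263 bins. For comparison, 539 large cliques that also fell below 0.5 but had 2 or more old cliques with 2 or more of their bins are called split, and the 622 at or above 0.5 are called kept. Since the rule used the match between the ages, everything below about how many bins the old network retained describes these 2 networks and supports nothing further.

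Acetylation of histone H3 at lysine 27 marks active promoters and enhancers. Hi-ChIP joins DNA ends that lie close together in the nucleus and then pulls down the fragments that carry the mark, so it maps contacts among active regulatory regions. In hepatocytes such hubs are known at genes for plasma proteins, drug and lipid metabolism and for the liver's own transcription factors, where many enhancers sit around a few promoters.

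The promoters of 6 genes illustrate both fates of a promoter bin inside these cliques. Each sequence covers the 200 bases before the annotated start, from RefSeq on GRCm38.p6, 5′ to 3′ on the gene's strand, with CpG dinucleotides in capitals. The first 3 promoters lay in bins that the old network did not contain. They belong to Ces1c, a carboxylesterase (chr8:93131284-93131483, minus strand), Pcsk6, a proprotein convertase (chr7:65861936-65862135, plus strand) and Terf2, a telomere-binding protein (chr8:107096546-107096745, minus strand).
Ces1c: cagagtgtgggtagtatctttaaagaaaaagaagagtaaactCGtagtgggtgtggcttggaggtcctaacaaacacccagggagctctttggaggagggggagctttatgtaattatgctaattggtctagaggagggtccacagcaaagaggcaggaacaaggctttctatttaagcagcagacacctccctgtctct
Pcsk6: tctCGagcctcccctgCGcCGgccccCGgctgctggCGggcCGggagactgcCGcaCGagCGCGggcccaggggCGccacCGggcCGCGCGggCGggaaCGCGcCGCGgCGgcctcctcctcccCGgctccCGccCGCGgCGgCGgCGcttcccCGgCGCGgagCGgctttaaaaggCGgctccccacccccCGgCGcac
Terf2: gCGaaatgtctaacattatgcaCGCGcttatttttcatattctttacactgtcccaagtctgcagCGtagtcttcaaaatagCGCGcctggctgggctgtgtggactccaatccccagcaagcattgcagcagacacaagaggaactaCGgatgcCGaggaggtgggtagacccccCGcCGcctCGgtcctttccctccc
The other 3 promoters lay in bins that the old network still contained, in old cliques of 99, 36 and 97 nodes. They belong to Adcy9, an adenylate cyclase (chr16:4420499-4420698, minus strand), Gm7694, a predicted gene (chr1:170306333-170306532, minus strand) and Szrd1 (chr4:141139797-141139996, minus strand).
Adcy9: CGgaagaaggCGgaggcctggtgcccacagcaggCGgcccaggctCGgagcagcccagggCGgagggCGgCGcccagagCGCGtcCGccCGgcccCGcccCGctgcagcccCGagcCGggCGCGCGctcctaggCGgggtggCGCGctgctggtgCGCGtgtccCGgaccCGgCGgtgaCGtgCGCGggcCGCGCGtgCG
Gm7694: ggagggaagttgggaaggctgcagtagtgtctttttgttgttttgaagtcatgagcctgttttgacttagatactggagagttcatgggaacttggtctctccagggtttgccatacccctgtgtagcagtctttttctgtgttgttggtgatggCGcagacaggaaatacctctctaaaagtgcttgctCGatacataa
Szrd1: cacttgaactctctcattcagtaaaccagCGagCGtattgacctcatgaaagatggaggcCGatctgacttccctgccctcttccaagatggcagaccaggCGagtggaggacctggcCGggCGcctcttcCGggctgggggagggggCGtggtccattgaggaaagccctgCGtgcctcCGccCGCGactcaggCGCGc
The absent promoters hold 1, 35 and 11 CpGs, and those still present hold 33, 2 and 14. CpG-dense and CpG-poor promoters therefore stood on both sides in these examples, and the counts over all promoters of the low-overlap cliques are given further on.

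The low-overlap cliques took 3 forms, and only the first is a shrunken remnant in the sense of a smaller old clique. In 305 of the 397 (76.8%) the partner had fewer nodes than the young clique. In 69 (17.4%) the partner was of equal or larger size, 7 of them equal. The remaining 23 (5.79%) had no partner at all, and 12 of these had no bin of theirs anywhere in the old network.

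The smaller partners were 305 distinct old cliques, 1 for each young clique. The young cliques of this form had a median of 16 nodes and their partners a median of 7. Of the partners, 104 lay wholly within the young clique and 38 consisted of just 2 nodes. Of all their bins, 79.3% came from the young clique they were matched to, 3.97% from other young cliques, and 16.7% were in no young clique. These old cliques were thus mostly made of the young clique's own bins.

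The partners of equal or larger size were a different mix. The 69 young cliques pointed to 59 distinct old cliques, with a median of 16 young nodes against 27 old nodes. Only 33.4% of the bins of these partners came from the low-overlap clique, 48.7% came from other young cliques and 17.9% were in no young clique. Here the label of a shrunken clique goes against the data, because 64.1% of the young bins were still in the old network, 788 of 812 of them in the partner.

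**Figure D1:**
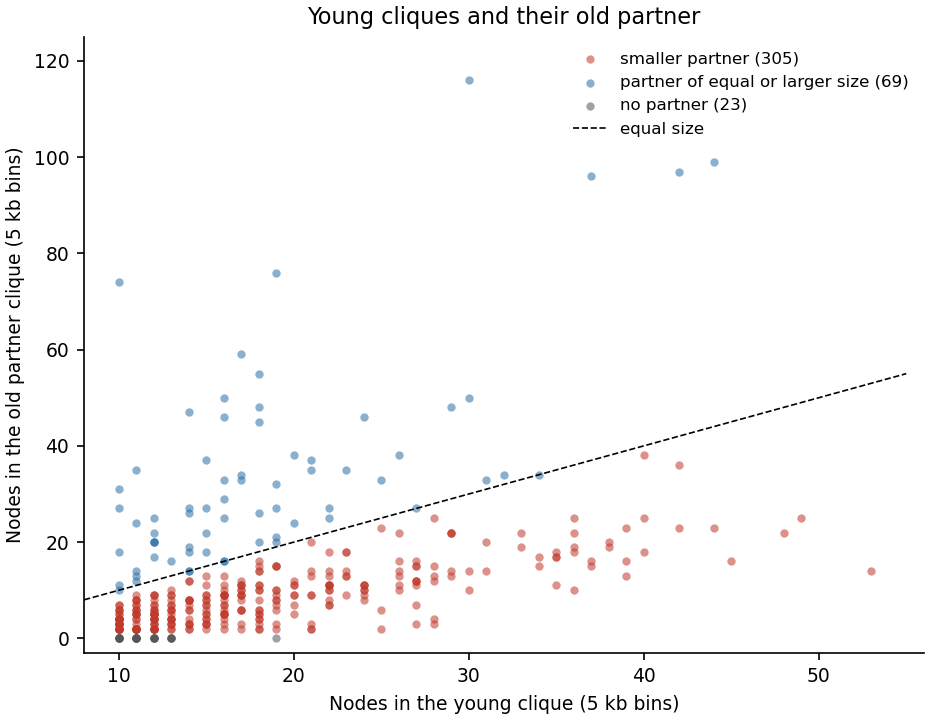
Each point is 1 of the 397 low-overlap cliques, with its nodes in the young network (horizontal axis) and the nodes of its old partner (vertical axis, both in 5 kb bins). Points under the dashed line of equal size are the 305 with a smaller partner, those on or above it the 69 with a partner of equal or larger size, and the 23 at 0 have no partner.

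Over all low-overlap cliques, 3053 of 7263 bins were also in the old network (42.0%, 95% Wilson interval 40.9 to 43.2). Intervals here cover counting error only and treat bins as independent, which neighbouring bins are not. The partner held 2883 of the bins (39.7%), and 170 (2.34%) lay in other old cliques, at most 1 bin in each. The other 4210 bins (58.0%) were absent from the old network, against 38.2% of the 44979 bins of all large young cliques, a contrast that the rule itself used. Split cliques had 58.1% of their bins in the old network and kept cliques 72.4%. The old network was also the smaller one, with 40304 nodes against 56928. The number of contacts behind each network is unknown, and its part in the absent bins was not tested.

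A bin counts as absent when the same 5 kb position is not a node of the old network. Of the 4210 absent bins, 1607 (38.2%) had an old node in the bin next to them, so a node was still called within a bin's length of those positions. The same share was 53.1% in split and 62.1% in kept cliques. Letting a young bin also match an old node beside it lowered the number of low-overlap cliques to 113. Letting each old node match only 1 young bin left 302.

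Absent bins were found between the shared bins as well as beyond them. In the 374 cliques with a partner, the shared bins stretched over a median of 130 kb, or 62.2% of the young span. They formed a median of 4 separate runs of adjoining bins, and in just 4 cliques 1 unbroken run. Gaps that the young clique already had also break a run. Runs of the young cliques were not counted, so these run counts do not measure loss. Inside the stretch of shared bins 2094 of 5033 young bins were absent (41.6%), and outside it 1864 of 1962 (95.0%). The stretch ends at the outermost shared bins, so no bin of the partner can lie outside it, and the second share is high by that definition. Of all absent bins of these cliques 52.9% lay inside the stretch. The first or last bin of the young clique was kept by the partner in 154 of the 374. Among the 305 with a smaller partner alone, the median was also 4 runs, 1 clique had a single run, and 106 kept an end bin.

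**Figure D2:**
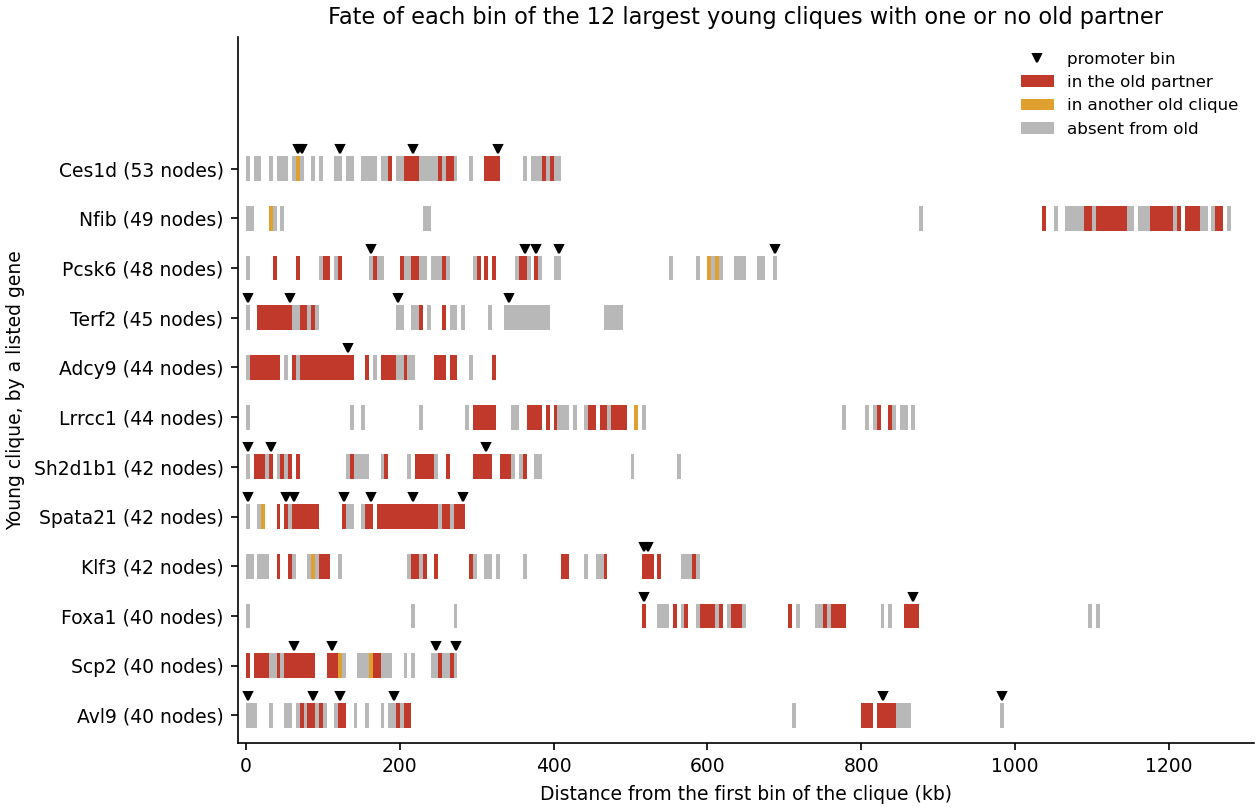
Each row is 1 of the 12 largest low-overlap cliques, drawn to scale as distance from its first bin in kb; every block is a 5 kb bin, coloured by whether the old partner holds it, another old clique holds it, or the old network lacks it, and triangles mark promoter bins. Rows are named by 1 listed gene (Lrrcc1 for the carbonic anhydrase clique, Sh2d1b1 for that of Nos1ap, Spata21 for that of Szrd1). Grey bins sit between red ones in all 12 rows, and in the row of Foxa1 the bins far from the main group are absent.

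Bins that carry a promoter were absent less often than the rest. A promoter bin is here a bin that holds the start site of a protein-coding gene in the RefSeq promoter table, which is not complete. In low-overlap cliques 443 of 696 promoter bins were in the old network (63.6%, 60.0 to 67.1), against 2610 of 6567 other bins (39.7%, 38.6 to 40.9). Of promoter bins in all large young cliques 22.7% were absent. Promoter bins made up 9.58% of the bins in low-overlap cliques, 14.5% of those still present and 6.01% of those absent. Among the 308 cliques that had both kinds of bin, promoter bins had the higher share in 215, the lower in 83 and an equal share in 10. The order was the same in split cliques (75.2% of promoter bins and 55.7% of other bins) and in kept cliques (83.8% and 71.0%), so it was not particular to the low-overlap set.

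Bins with close neighbours in the same clique were also found more often. Of bins with no neighbour on either side in the clique 24.6% were in the old network, with 1 neighbour 39.1%, and with both neighbours 56.7%. Promoter bins were above other bins at each step, at 42.9% against 22.6% with no neighbour, 63.8% against 36.6% with 1 and 76.8% against 54.5% with both. The first and last bins of the cliques were found in 26.4% of cases, against 37.1% over all large young cliques. The rise with neighbours was present in every class, at 37.7%, 53.3% and 69.3% in split and 42.2%, 62.6% and 82.3% in kept cliques, so it was not particular to the low-overlap set. Of the bins of low-overlap cliques 22.7% had no neighbour, compared with 15.8% in split and 9.89% in kept cliques.

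**Figure D3:**
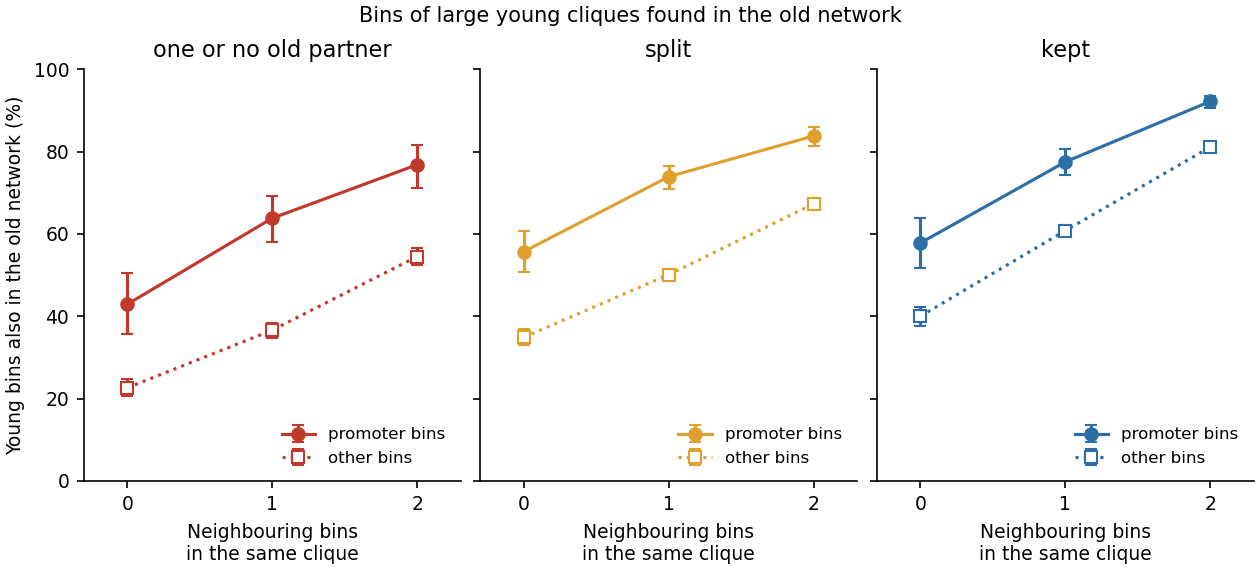
Share of young bins that were also nodes of the old network (vertical axis, %), by the number of directly neighbouring bins in the same clique (horizontal axis), for promoter bins (filled circles, solid lines) and other bins (open squares, dotted lines); bars are 95% Wilson intervals. Promoter bins lie above other bins in all 3 classes, from 42.9% against 22.6% with no neighbour to 76.8% against 54.5% with both in the low-overlap cliques (left).

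Measured in the young network alone, low-overlap cliques were small and open, but the rule that chose them used the match to the old network. A clique with more bins has more chances to share bins with several old cliques, so the rule itself favours small cliques. The share of the span that a clique fills rose with size in low-overlap and split cliques, so its pooled value carries the same limit. The low-overlap cliques held 10 to 53 nodes, with a median of 16. The rule selected 274 of 649 large cliques with 10 to 19 nodes (42.2%), 122 of 709 with 20 to 49 (17.2%) and 1 of 200 with 50 or more (0.5%). By chromosome the share selected ran from 13.3% on chromosome 12 to 33.3% on chromosome 13. The median span was 240 kb, close to the 245 kb of kept cliques and under the 345 kb of split cliques. Of the bins across the span, a median of 35.7% belonged to the clique (33.3 to 38.5), against 41.7% in split (39.5 to 43.6) and 59.6% in kept cliques (57.4 to 62.1). These intervals are binomial 95% intervals of the median over cliques.

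At matched size the low-overlap cliques lay under the kept cliques and within the intervals of the split cliques. With 10 to 19 nodes the median fill was 33.3% in low-overlap, 35.3% in split and 60.0% in kept cliques. With 20 to 49 nodes it was 43.0%, 41.7% and 59.7%. Other young cliques rarely occupied the gaps: a median of 60.5% of the span of low-overlap cliques belonged to no clique, against 54.8% for split and 38.7% for kept cliques.

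**Figure D4:**
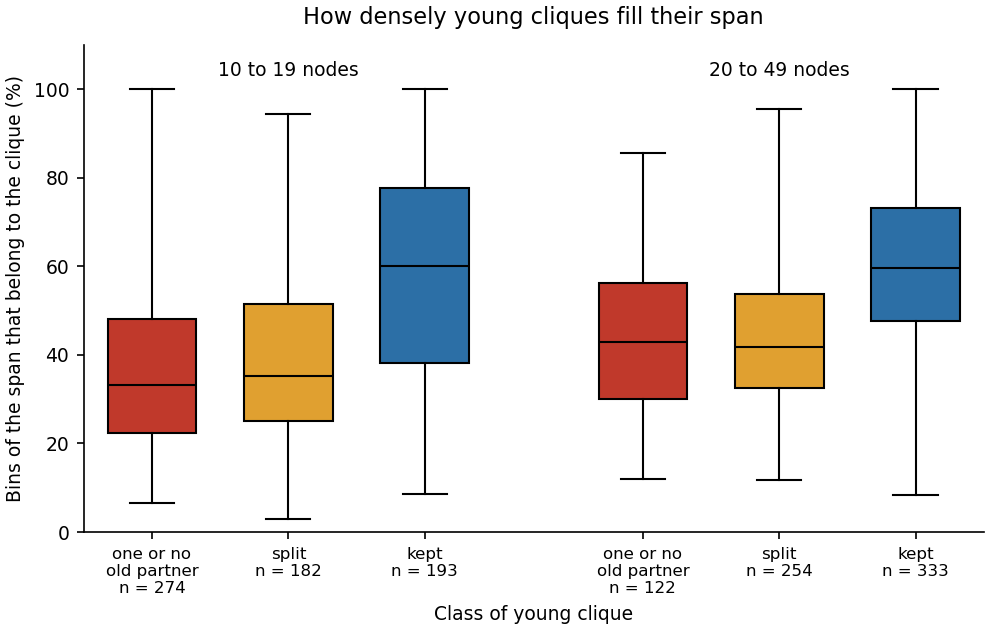
Share of the 5 kb bins across a young clique's span that belong to the clique (vertical axis, %), by size class and class of clique; boxes give the median and quartiles, whiskers the range, and n the number of cliques. Low-overlap cliques (red) have medians of 33.3% and 43.0%, near the split cliques and under the kept cliques at 60.0% and 59.7%.

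At the limit of the rule, cliques on either side looked alike. Just inside lay the carbonic anhydrase clique of Car1, Car2 and Car3 (index 0.489), the clique of Mgll, the monoacylglycerol lipase, with Kbtbd12, Abtb1 and Podxl2 (36 nodes, 20 shared with a partner of 25, index 0.488), and the clique of Itgb2, the integrin beta chain of leukocytes, with Sumo3, Ube2g2 and others (36 nodes, 19 shared with a partner of 22, index 0.487). Just outside lay the cliques of Noct and Elf2 (37 nodes, 19 shared with a partner of 20), Arf6, Sos2 and Nemf (33 nodes, 17 of 18) and Shmt1 and Flii (32 nodes, 20 of 28), all at an index of 0.5, where 33 cliques tied.

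The largest low-overlap clique covered the carboxylesterase-1 cluster on chromosome 8 (chr8:93010001-93420000). Carboxylesterases hydrolyse drugs and lipid esters in the liver. It held 53 young nodes, of which 15 were in the old network, and all 14 nodes of its partner came from it. The partner listed Ces1d (chr8:93166072-93197804) and Ces1f (chr8:93256236-93279766). Ces1b was listed by an old clique of 2 nodes, and Ces1c, whose promoter is printed above, by none, with no old node in the gene or within 2500 bp of it. The same cluster thus kept nodes at some carboxylesterase genes and not at others. These genes are close relatives in tandem, and no source used here says how reads that fit several of them were placed.

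The second largest held Nfib, a nuclear factor I transcription factor (chr4:81275001-82555000), with 49 young nodes. The partner had 25 nodes, 24 of them shared. Those lay within 235 kb of a young span of 1280 kb, as its map shows, a stretch that overlaps the gene. Of the bins outside it 1 was in another old clique and the rest were absent.

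On chromosome 7 a clique of 48 nodes (chr7:65700001-66390000) listed Pcsk6, Chsy1, a chondroitin synthase, Selenos, a selenoprotein of the endoplasmic reticulum, and the splicing factor gene Snrpa1. Its partner had 22 nodes and listed Snrpa1 and Selenos. Pcsk6 and Chsy1 were listed by no old clique and their promoter bins were absent, although old nodes of the partner lay in or beside Pcsk6.

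On chromosome 8 a clique of 45 nodes (chr8:107095001-107585000) listed Terf2, Cyb5b, Nfat5 and Wwp2. Only 14 of its bins were in the old network, all in a partner of 16 nodes. The partner listed Cyb5b, a mitochondrial outer membrane cytochrome b5. The promoter bins of Terf2, of Nfat5, the transcription factor of osmotic stress, and of the ubiquitin ligase gene Wwp2 were absent. Here 1 gene of 4 kept a listing.

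A clique of 44 nodes at the carbonic anhydrase genes (chr3:14380001-15250000) had 23 bins in the old network, 22 of them in a partner of 23. Carbonic anhydrases interconvert carbon dioxide and bicarbonate, and Car3 is abundant in liver. Car3 was listed by the partner and Car2 by an old clique of 2 nodes, while Car1 and Lrrcc1 were listed by none.

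On chromosome 1 the clique of Nos1ap, an adaptor of nitric oxide synthase, and of Sh2d1b1 (chr1:170275001-170840000) had 42 nodes, 24 of them in a partner of 36. The partner listed Gm7694 and Spata46. Nos1ap was listed by no old clique even though its promoter bin was in the partner, so a listing and a bin did not always go together. The old partner also held 11 bins that no young clique had.

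The clique of Klf3, a Krüppel-like repressor (chr5:64285001-64875000), had 42 nodes, 19 of them in the old network and 18 in a partner of 23. Both of its promoter bins remained. The clique of Foxa1, a pioneer factor that opens chromatin at liver enhancers (chr12:56680001-57790000), had 40 nodes, 21 of them in a partner of 25. All 4 of its genes, Foxa1, Slc25a21, Mipol1 and Prps1l3, were listed by that partner. A clique of 40 nodes on chromosome 6 (chr6:56710001-57695000) had 17 bins in a partner of 18, which listed Kbtbd2, Fkbp9 and Gm10209, and Avl9 was listed by none.

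The other 3 of the 12 largest had partners that also took many bins from another young clique. The clique of Adcy9 and Tfap4 (chr16:4290001-4615000) had 44 nodes, 35 of them in an old clique of 99, which also took 53 bins from a young clique of 73 nodes. The clique of Szrd1, Fbxo42, Cplane2 and Spata21 (chr4:141085001-141370000) had 42 nodes, 33 of them in an old clique of 97, which took 51 bins from a young clique of 85 nodes. Both belong to the form with a larger partner, and their low index came from the partner's size. The clique of Scp2, a sterol carrier of peroxisomes, and Echdc2 (chr4:108055001-108330000) had 40 nodes and a partner of 38, into which a young clique of 20 nodes gave 15 bins. Only 57.5% of the bins of the Scp2 clique were in the old network, so the near-equal sizes hide absent bins. Zyg11b of this clique was listed by no old clique.

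The largest cliques without a partner were smaller. Arhgap24, a Rac GTPase-activating protein gene, lay in one of 19 nodes (chr5:102420001-102695000), of which 2 were in the old network, in different cliques. Acadl, the long-chain acyl-CoA dehydrogenase of mitochondrial fatty acid oxidation, shared a clique of 13 nodes with Rpe (chr1:66700001-67005000), of which 2 bins were in the old network. Ctbp1, a transcriptional corepressor, shared one of 13 nodes with Spon2, Maea and Uvssa (chr5:33205001-33380000), of which 1 bin remained, at Uvssa. Tjp1, the tight junction protein ZO-1, lay in one of 13 nodes with 1 bin left (chr7:65330001-65505000). A clique of 13 nodes on chromosome 2 (chr2:102740001-103350000) listed no protein-coding gene and had 1 bin left. In the 23 cliques of this form 16 of 268 bins were in the old network, and 21 of their 24 genes were listed by no old clique. Over all large young cliques 61.8% of bins were in the old network and 21.1% of genes were listed by no old clique. The form is defined by having no old clique with 2 or more of its bins, so both contrasts follow largely from that definition.

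Across all low-overlap cliques 885 protein-coding genes were listed, a median of 2 per clique, and 35 cliques listed none. An old clique listed 594 of them again, the partner in 551 cases and another old clique in 43. The other 291 (32.9%, 29.9 to 36.0) were listed by no old clique, against 21.1% of the 6508 genes of all large young cliques, again a contrast the rule used. The share was 22.7% in split and 15.4% in kept cliques. It was 34.3% of 624 genes where the partner was smaller and 23.6% of 237 where it was equal or larger. Of the 291, 153 had an old node in the gene or within 2500 bp, and 138 of the 885 (15.6%) had none. Among the 153 were Nfat5, Car1, Lrrcc1, Zyg11b, Arhgap24, Maea, Tjp1, Fggy, Fgfr4 and Btg1. Of the 594 genes listed at both ages 419 moved to a smaller clique, 165 to a larger and 10 to one of equal size, with medians of 18 young and 12 old nodes.

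A gene's listing followed its promoter bin closely. Of 417 genes whose promoter bin was in the partner, 403 were listed by an old clique, and of 228 whose promoter bin was absent 20 were. The promoter table held no start site for 186 of the genes. Of the 699 with one, 670 (95.9%) had it in a bin of the clique that listed them, so the deposited listing mostly coincided with promoter bins.

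Of the 353 genes in 13 lists of hepatocyte pathways, 274 were in large young cliques and 37 of these in low-overlap cliques. That was 13.5%, against 13.6% for all protein-coding genes, so these cliques did not hold a higher share of the listed genes. By list the share ran from 0 of 11 genes of p53 and cell cycle arrest to 6 of 21 hepatocyte transcription factors (28.6%), with the growth hormone axis at 27.3% and xenobiotic metabolism, 7 of 29, at 24.1%. Of the 37 genes 10 were listed by no old clique, a slightly lower share than the 32.9% of all genes of these cliques. Of the 25 with a promoter bin in the clique it was absent for 9 (36.0%), against 228 of 670 genes (34.0%). In the old network 5 of the 37 were in a larger clique than in young.

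Among transcription factors of hepatocytes, 6 of 21 were in low-overlap cliques and all 6 went to a smaller clique or to none, as did 710 of the 885 genes of these cliques (80.2%), an outcome that the rule favours. Foxa1 went from 40 to 25 nodes. Onecut1, the hepatocyte nuclear factor 6 (clique at chr9:74295001-74875000), went from 37 to 16, with 13 bins shared, and its promoter bin remained. Onecut2 went from 16 to 9, Gata6 from 14 to 8 and Cebpd, a C/EBP factor of the acute phase response, from 10 to 3. Nr2f2, the orphan receptor COUP-TFII, was in a clique of 10 nodes and in no old listing, though its partner, an old clique of 3 nodes that shared 2 bins, had a node in or near the gene.

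The growth hormone axis had 3 of 11 genes in low-overlap cliques. Ghr, the growth hormone receptor, was in a young clique of 18 nodes (chr15:3430001-3620000), of which 2 were in the old network. Ghr was listed by no old clique, though an old clique of 2 nodes had a node in or near the gene. Hsd3b5, a male-specific hepatic steroid dehydrogenase, was in one of 21 nodes (chr3:98620001-98790000), of which 2 were left. Igf1, the hormone that the liver makes in response to growth hormone, went from 27 nodes to 12 (chr10:87590001-87980000), all 12 of them from the young clique, and its promoter bin remained. The receptor and Hsd3b5 therefore lost their promoter bins while Igf1 kept its own.

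Of the immediate early and stress genes, 4 of 24 were in low-overlap cliques. Jun, an AP-1 subunit, went from 39 to 13 nodes (chr4:95050001-95890000), with 9 bins shared and its promoter bin kept, while Fggy in the same clique was no longer listed. Myc went from 34 to 15 nodes (chr15:61980001-62810000), with 9 bins shared. Klf10 went from 27 to 16. Btg1, an antiproliferative factor, was in a clique of 13 nodes and then listed by none, though an old clique of 2 nodes had a node in or near it.

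In xenobiotic metabolism the carboxylesterases have been described. Cyp2c37 and Cyp2c50, cytochromes that oxidise drugs and arachidonic acid, shared a clique of 13 nodes with Cyp2c70 (chr19:39990001-40235000), a hydroxylase of bile acids. The old partner of 6 nodes listed Cyp2c70, whose promoter bin remained, and neither Cyp2c37 nor Cyp2c50, whose promoter bins were absent. The Cyp2c genes are close relatives too, with the same limit on shared reads. Aox3, an aldehyde oxidase, went from 28 to 15 nodes. The neighbouring Aox1 was in another young clique of 12 nodes, whose partner had 3 nodes, and its promoter bin was absent. An old clique of 15 nodes other than that partner listed Aox1, so both aldehyde oxidases ended at a clique of the same size.

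Glucose and amino acid metabolism each had 3 genes in low-overlap cliques. Ppp1r3b, the liver subunit that targets a phosphatase to glycogen, went from 36 to 19 nodes (chr8:34870001-35470000). Gys2, the liver glycogen synthase, went from a clique of 30 nodes to an old clique of 2 that was not its partner. Igfbp1 went from 18 to 14. Cth, the cystathionine lyase of cysteine synthesis, went from 39 to 16 nodes (chr3:157555001-158080000), together with Ankrd13c, Srsf11 and Lrrc40. Tdo2, which opens the tryptophan ring, was in a clique of 23 nodes whose partner of 13 did not list it. Hal, the histidine ammonia-lyase, went the other way, from 17 nodes to 34, and its old clique also held 17 bins of a young clique of 32.

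In lipid metabolism Hadha and Hadhb, the subunits of the mitochondrial trifunctional protein that share a promoter region, went from 29 to 22 nodes with 16 bins shared. Cpt2, the inner carnitine palmitoyltransferase, went from 20 to 38. Srebf1, the regulator of lipid synthesis, went from 23 to 18 nodes. Fgfr4, the receptor through which the gut hormone FGF15 acts on bile acid synthesis, was in a clique of 16 nodes (chr13:55105001-55325000), of which 3 were in the old network, and was listed by none. An old clique of 2 nodes still had a node in or near Fgfr4.

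Of the remaining lists, C3, the central complement protein, was in a clique of 30 nodes (chr17:56985001-57335000). Its old partner had 116 nodes, 23 of them from this clique, and also listed Alkbh7 and Pspn. Of the clock genes, Nr1d2 went from 10 to 4 nodes and Ciart from 15 to 22. Tgfbr1, a receptor of transforming growth factor beta, went from 13 to 8.

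**Figure D5:**
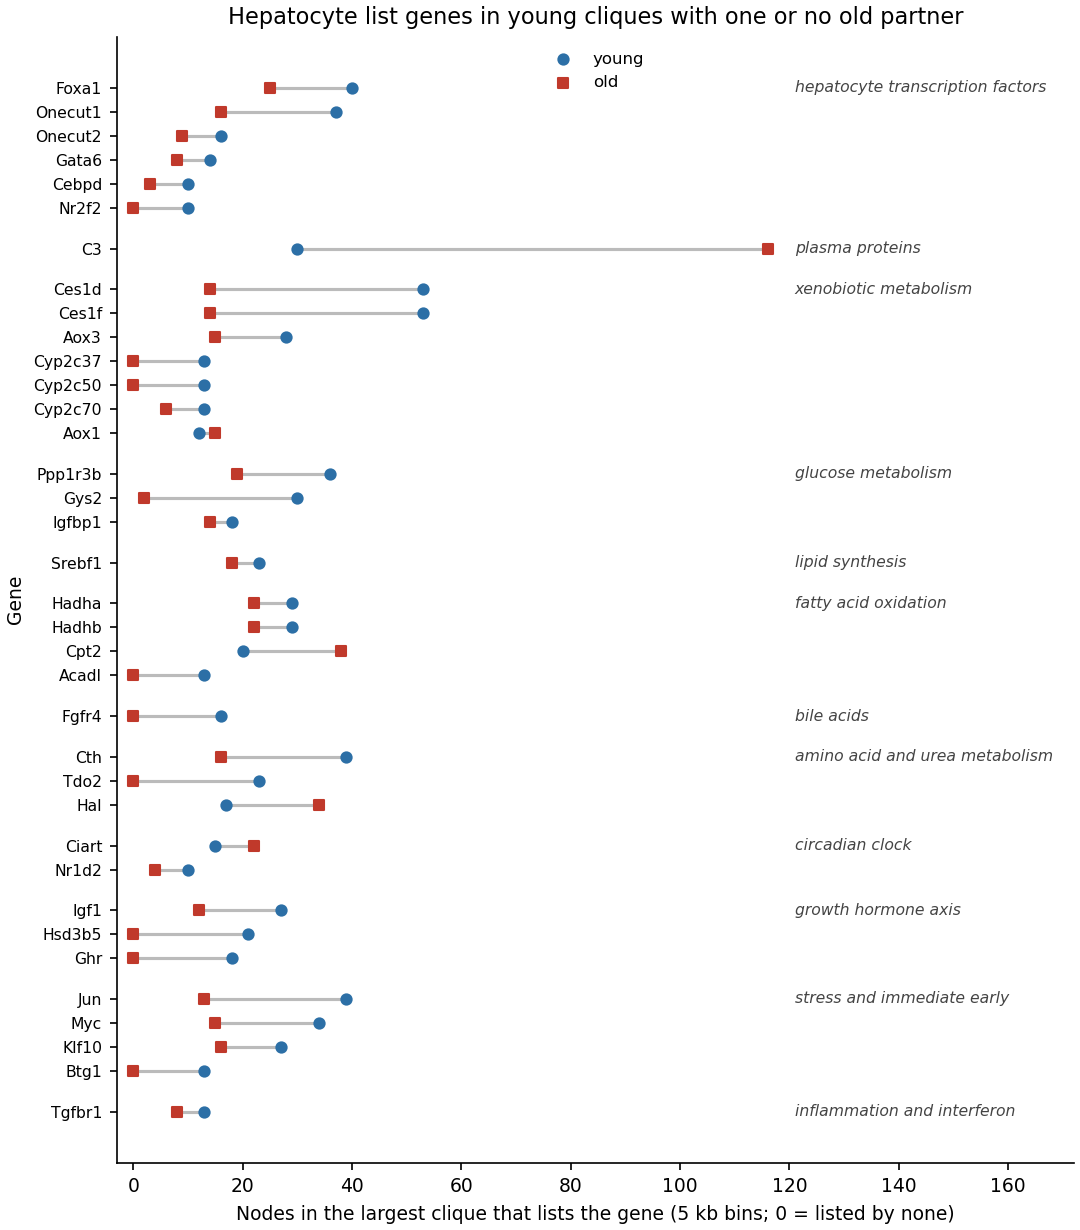
Nodes in the largest clique that lists each of 36 list genes of the low-overlap cliques, in the young network (blue circles) and the old network (red squares), grouped by list; 0 means that no clique of that age lists the gene. The old value is the lower for 31 genes and 0 for 9 of them, and it is the higher for C3, Aox1, Cpt2, Hal and Ciart.

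The promoters of low-overlap cliques were CpG-rich about as often as those of other large cliques. A promoter here is the window from 250 bases before to 50 after a start, and CpG-rich means an observed over expected ratio of at least 0.6. That held for 66.9% of 860 promoters in low-overlap cliques, 65.5% in split and 67.0% in kept cliques, against 48.9% of all 20085 autosomal promoters. Within low-overlap cliques it held for 68.4% of promoters whose bin was in the old network (64.4 to 72.1) and 64.2% of those whose bin was absent (58.7 to 69.3), so the intervals overlapped.

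Motifs for 5 factors were searched on both strands of the same windows. Matches to the FOXA letters TGTTTAC or TGTTTGC were found in 32 of 307 promoters in absent bins (10.4%) and 29 of 553 in bins still present (5.24%), against 7.47% of all promoters. In split cliques the shares were 7.37% and 5.96%, and in kept cliques 4.23% and 5.89%, so the direction was not the same in every class. The AP-1 letters TGACTCA, whose reverse complement is TGAGTCA, were found in 2.61% of promoters in absent bins and 3.25% of those still present, against 4.70% of all. These AP-1 shares were 5.49% and 3.53% in split cliques and 2.23% and 4.02% in kept cliques, so the direction again differed between classes. The cyclic AMP element, spelled TGACGTCA, was found in 3.58% and 3.98%, and in 462 of all 20085 promoters (2.3%). Its shares were 2.46% and 2.91% in split cliques and 1.78% and 3.14% in kept cliques. The C/EBP letters TTGCGCAA or TTGCACAA were found in 1 of 307 and 5 of 553 promoters, and the HNF4 letters CAAAGTCCA in 2 and 3, which is too few to compare. None of the 6 promoters printed above held a match in its printed bases.

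The networks listed hepatocyte markers, 7 of 8 in young and 6 of 8 in old, the exceptions being Serpina1a in both and Hnf4a in old. Of markers of other liver cells, none of 5 for Kupffer cells was listed at either age. For endothelial cells the young network listed 2 of 5 and the old network 1, for stellate cells 1 and 0, for cholangiocytes 1 and 0 and for lymphocytes 1 and 1. The cholangiocyte marker was Spp1, osteopontin, and it is the single such marker in a low-overlap clique, of 11 nodes without a partner. None of the hepatocyte markers was in a low-overlap clique. The part of other cell types in the absent bins was not tested.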

How the data were processed

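H3K27ac Hi-ChIP was measured in 12 libraries, 6 per age, and the authors deposited 1 network per age as a list of 5 kb nodes with positions and a list of cliques with their genes and nodes. The submitters' processing notes name Bowtie2 and HiC-Pro with the builds mm10 and GRCm38. The sources used here do not say whether and how libraries were pooled. They also do not give how loops and cliques were called, at what thresholds, or how near a promoter had to lie. The values analysed are the deposited clique memberships and gene listings, per the file headers, and hold no contact counts, so depth is unknown.

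Bins were matched by identical position. Gene names were matched to protein-coding genes of the RefSeq annotation of GRCm38.p6, the assembly of mm10, by symbol or unique synonym, which gave 885 genes from 1567 names in the low-overlap cliques. Promoter sequences are from RefSeq on that assembly and 699 of the 885 genes had one. Printed sequences come from genes of the 12 largest cliques, 1 gene per clique, in order of size. Cliques described singly are the 12 largest, the 5 largest without a partner, the 6 largest others with a list gene, and 3 on each side of the index limit. Up to 4 genes were named per list, and Cebpd, Nr2f2, Cyp2c50, Cyp2c70 and Aox1 were added after their values were seen. A gene that the rule names is not reported here, and stays in the counts. The members and lists were chosen with earlier results of these data known. Python 3.11.15, pandas 2.3.3, NumPy 2.4.6 and SciPy 1.17.1 were used, and the matching was tested on simulated networks. Nothing was tested for significance, because each age is 1 network. Alternatives changed the size minimum, the index limit, the bins that make a partner, bin matching, the X chromosome and the smallest old cliques.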

Additional observations from a re-analysis of the deposited data

How the results depend on the processing

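Of 106 recomputed values 52 stayed within the interval of the reported value (for counts, within 1.5 times) and 54 did not. Under each of the 10 alternatives of the classification, promoter bins were found in the old network more often than other bins in all 3 classes. Under the same 10 the median fill was lowest in low-overlap and highest in kept cliques (43.1%, 44.6% and 59.5% at a minimum of 20 nodes). Within size classes that order did not hold: at 20 to 49 nodes low-overlap cliques were at 43.0% and split cliques at 41.7%, and the single low-overlap clique of 50 or more nodes was at 64.6%, above kept cliques at 58.6% and split cliques at 49.7%. No paired analysis was possible because each age is 1 network with no replicate or batch named in it. The contacts behind each network are unknown, and the part of depth in the absent bins was not tested.

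With a minimum of 20 nodes 123 cliques met the rule, 45.2% of their bins were in the old network and 43.7% in the partner, 29.8% of their genes were not listed in old, the fill was 43.1%, the span 315 kb, 83.7% had a smaller partner and 0% none, and 69.1% of promoter bins and 43.1% of other bins were in the old network. With a minimum of 8 nodes 38.2% of bins were in the partner, 72.3% had a smaller partner and 10% none. With an index below 0.4, 36.3% of bins were in the old network and 33.5% in the partner, 38.0% of genes were not listed in old, and promoter and other bins were at 58.3% and 34.0%. Below 0.6 the values were 49.3% and 47.5% of bins, 29.3% of genes, a fill of 40.9%, 80.8% with a smaller partner, and 68.6% and 47.3% of promoter and other bins.

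When 1 shared bin made a partner, 40.4% of all bins and 38.0% of other bins were in the old network. When 3 were needed, 659 cliques met the rule, 46.2% of bins were in the old network and 37.3% in the partner, 68.9% had a smaller partner and 17.3% none, and 43.9% of other bins were found. When an old node could match several young bins beside it, 113 cliques remained, with 49.7% of bins in the old network and 47.8% in the partner, 39.8% of genes not listed, 56.6% with a smaller partner and 10.6% with none, and 70.8% of promoter bins and 47.4% of other bins found. This alternative counts 1 old node for several young bins. When an old node could match 1 bin only, a setting added after seeing the data, 302 cliques met the rule and 40.8% of bins were in the partner. Without old cliques of 2 nodes the values were 38.6% in the old network, 38.1% in the partner, 41.8% of genes not listed, 72.0% with a smaller partner, 13.2% with none, and 56.6% of promoter and 36.6% of other bins.

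Counting all names in the gene column, 40.7% were not listed in old, and 15.6% of protein-coding genes had no old node in or within 2500 bp of them. At a CpG ratio of 0.75 or more 47.7% of promoters were CpG-rich, against 66.9%. The alternatives for the 2 partner forms and for promoter and other bins were added after the data were seen. The cause of these shifts was not tested.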

Other observations

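On the X chromosome, outside the rule, 4 of 14 large young cliques would have met it (28.6%). These 4 had 14 of 41 bins in the old network (34.1%), a share that the rule itself keeps low. The share over all 14 is not given here, so nothing is said about the X chromosome as a whole. The 4 cliques listed Gjb1 (connexin 32, the main gap junction protein of hepatocytes) with Zmym3, the chromatin remodeller gene Atrx with Magt1 and Cox7b, Ndufb11 with Rbm10, Uba1, Cdk16 and Usp11, and Wdr13 with Tbc1d25, Ebp, Porcn and Ftsj1. Their sizes were 10, 10, 10 and 11 nodes, and those of the old partners 8, 4, 0 and 9.

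The gene column of the low-overlap cliques also held 682 names that match no protein-coding gene, of which 346 (50.7%) were listed by no old clique. Of 37 microRNA gene names 20 were not listed in old. The same shares were not computed over all large young cliques, so neither count can be called particular to the low-overlap cliques. Mir192 and Mir194-2, which encode the liver-rich miR-192 and miR-194, belonged to 21 young nodes and to an old clique of 35, and Mir130a in cliques of 29 and 48. Mir146b, in a young clique of 10 nodes, and Mir26a-2, in one of 16, were listed by no old clique. These names were chosen after their values were seen, and a host or neighbouring promoter cannot be told from the microRNA's own in a 5 kb bin.

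The partners also held bins that no young clique had. Smaller partners had 442 such bins, of which 363 (82.1%) lay inside the span of the young clique and 239 (54.1%) directly beside one of its bins. Partners of equal or larger size had 423, of which 163 (38.5%) lay inside the span.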
